A study of Mus musculus with 6 samples.

Results

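The cholesterol genes described here are 36 of the 28500 genes in the deposited expression table, chosen by gene symbol: the enzymes of the mevalonate and sterol pathway, the SREBP control proteins, genes of sterol uptake, transport and storage, and the LXR receptors with genes of sterol efflux. All 36 were found once in the table, and all 36 passed the filter on low counts, so none dropped out. Messenger RNA was sequenced from epithelial cells released with EDTA from the colon of 6 untreated mice, all labelled as males of 8 weeks (a label that the RNA of 1 library goes against), 3 labelled Ube2fflox (written Ube2f_flox here, genotype given as wild type) and 3 labelled Ube2fΔIEC (written Ube2f_dIEC, genotype given as knockout). Ube2f encodes an E2 enzyme that passes the ubiquitin-like protein NEDD8 to cullins, and ΔIEC stands for a deletion in intestinal epithelial cells. The labels name neither the Cre driver nor the deleted exons, and no group with Cre alone was sequenced, so loss of Ube2f and other differences between the sets of mice cannot be told apart. None of the mice had received dextran sodium sulfate.

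Cells make cholesterol from acetyl-CoA through mevalonate, farnesyl diphosphate, squalene and lanosterol. When sterol in the endoplasmic reticulum is low, SCAP carries the transcription factor SREBP2 to the Golgi for cleavage, and the released factor turns on the enzymes of synthesis. When sterol is high, INSIG proteins hold SCAP back, and oxysterols activate the nuclear receptors LXRα and LXRβ, which turn on genes that export sterol or reduce its uptake. The gut epithelium takes up sterol from the lumen and from lipoproteins, and its dividing crypt cells need sterol for new membrane. The members were therefore read as 21 SREBP2-driven genes (18 enzymes with Insig1, Stard4 and Srebf2), 6 LXR targets (Abca1, Abcg1, Abcg5, Abcg8, Mylip and Srebf1) and the remaining members.

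Total counts ran from 55971362 to 77524693 per library. Ube2f itself was at 34.0, 42.1 and 32.1 CPM (counts scaled to the size of the library with TMM factors) in Ube2f_flox replicates 1 to 3 and at 17.1, 17.99 and 20.995 CPM in Ube2f_dIEC replicates 1 to 3, a log2 fold change of -0.95 (SE 0.13; edgeR adjusted p = 0.0923). Epithelial markers (Epcam, Cdh1, Krt8, Krt18, Krt19 and Vil1) summed to between 12556 and 14478 CPM in every library. Among them 2 lay lower in each Ube2f_dIEC library, as 6.9% of all genes tested did, and the other 4 overlapped. Neither of the 2 was called (edgeR adjusted p = 0.613 for Epcam and 0.838 for Cdh1). Epcam was at 1293 to 1315 CPM in Ube2f_flox and 1140 to 1188 CPM in Ube2f_dIEC. Cdh1 was at 909 to 1003 CPM against 891 to 900 CPM. Ube2f_dIEC replicate 1 is labelled male but carried 494 CPM of Xist, whereas no other library exceeded 1.33 CPM, and 0 counts of Ddx3y, Eif2s3y, Kdm5d and Uty. Results for the cholesterol genes are therefore given with and without it. The labels number the mice within each genotype and do not say whether they shared litters, cages or days, so p-values measure only the spread between these mice.

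Promoters are shown first because the SREBP2-driven genes are defined by a shared regulator, and SREBP2 is known to act with the promoter factors NF-Y and SP1. The RefSeq windows (GRCm38.p6, 250 bases before to 50 after a start site) held 28 of the 36 genes, in 38 windows. Fdps, Fdft1, Sqle, Stard4, Npc1, Abcg1, Soat2 and Scarb1 had no entry. Both strands were searched for TCACNCCAC (an SREBP element), CCAAT (bound by NF-Y), GGGCGG (bound by SP1) and 3 forms of the LXR element, a direct repeat of AGGTCA-type sites spaced by 4 bases. Windows of Hmgcs1 and Abca1 follow by a fixed rule, and those of Lss, Hsd17b7 and Ebp were added after their values were seen, Lss and Hsd17b7 for the lowest edgeR p among the enzymes and Ebp because its log2 fold change was near 0. Each is read 5′ to 3′ on the strand of the gene, and capitals mark TCACNCCAC or CCAAT on either strand (the latter reads ATTGG on the other strand).
Hmgcs1 (chr13:119690101-119690400, plus strand): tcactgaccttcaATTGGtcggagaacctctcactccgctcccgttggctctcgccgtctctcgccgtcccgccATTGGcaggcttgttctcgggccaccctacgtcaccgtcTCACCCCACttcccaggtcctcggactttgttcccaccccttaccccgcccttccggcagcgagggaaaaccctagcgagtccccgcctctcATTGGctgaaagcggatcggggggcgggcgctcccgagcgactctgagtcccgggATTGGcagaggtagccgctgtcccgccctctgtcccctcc
Lss (chr10:76531355-76531654, plus strand): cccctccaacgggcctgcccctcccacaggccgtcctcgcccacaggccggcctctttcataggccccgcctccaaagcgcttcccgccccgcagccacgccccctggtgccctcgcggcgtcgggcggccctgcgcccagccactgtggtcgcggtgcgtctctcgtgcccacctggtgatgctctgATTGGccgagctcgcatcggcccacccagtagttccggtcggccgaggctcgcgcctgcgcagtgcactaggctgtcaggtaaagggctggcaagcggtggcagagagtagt
Hsd17b7 (chr1:169969156-169969455, minus strand): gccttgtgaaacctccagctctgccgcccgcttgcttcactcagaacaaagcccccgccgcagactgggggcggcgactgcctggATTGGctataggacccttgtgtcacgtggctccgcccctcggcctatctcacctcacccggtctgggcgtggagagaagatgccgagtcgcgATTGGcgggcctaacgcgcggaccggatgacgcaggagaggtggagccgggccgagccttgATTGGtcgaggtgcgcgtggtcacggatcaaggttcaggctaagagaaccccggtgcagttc
Ebp (chrX:8193463-8193762, minus strand): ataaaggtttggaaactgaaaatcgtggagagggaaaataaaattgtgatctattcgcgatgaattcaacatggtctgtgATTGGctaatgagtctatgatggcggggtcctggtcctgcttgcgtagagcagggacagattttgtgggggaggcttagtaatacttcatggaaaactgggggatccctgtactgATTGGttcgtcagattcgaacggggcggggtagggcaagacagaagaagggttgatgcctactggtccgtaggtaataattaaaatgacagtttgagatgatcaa
Abca1 (chr4:53159846-53160145, minus strand): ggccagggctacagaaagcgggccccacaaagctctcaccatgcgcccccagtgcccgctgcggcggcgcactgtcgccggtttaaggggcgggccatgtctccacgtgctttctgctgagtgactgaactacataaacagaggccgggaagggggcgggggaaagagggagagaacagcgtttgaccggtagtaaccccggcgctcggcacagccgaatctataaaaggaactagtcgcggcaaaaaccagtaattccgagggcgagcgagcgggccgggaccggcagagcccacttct

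Hmgcs1 was the 1 gene of the 17 SREBP2-driven genes with a window that held TCACNCCAC, which begins 137 bases before its start. Among genes tested at a mean of at least 10 CPM with a window, 1.40% held it. CCAAT was in a window of 16 of the 17, with Acat2 the exception, against 42.4% of those 7054 genes. GGGCGG was also in 16 of the 17, against 72.2%. Lss held 1 CCAAT, Hsd17b7 held 3, and Ebp held 2. Sc5d and Dhcr7, which like Ebp had log2 fold changes near 0 between genotypes, also held CCAAT in a window. Of the 5 LXR targets with a window, 4 held CCAAT. None of the 28 genes held the LXR element in these forms, which 0.0335% of all 32851 windows did. Only these exact letters were counted, and sites with other letters were missed. The lack of a match therefore does not show that a window, that of Abca1 included, has no LXR site. These are matches of letters within a short window and not measured binding.

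Most of the 36 genes were well expressed, and the exporters were not. On the FPKM scale, which corrects for gene length, Hmgcs1 had the highest mean over the 6 libraries (42.2 FPKM), followed by Stard4 (40.4), Insig1 (39.3), Srebf2 (33.7) and Cyp51 (23.7), and the ranges of Hmgcs1, Stard4 and Insig1 over libraries overlapped. The LXRβ gene Nr1h2 was at 23.2 FPKM and the LXRα gene Nr1h3 at 5.66 FPKM. Squalene epoxidase Sqle was at 13.8 FPKM and lanosterol synthase Lss at 5.69 FPKM. At the other end were the sterol exporters Abcg5 (0.901 FPKM), Abcg1 (0.378), Abca1 (0.340) and Abcg8 (0.297), and Npc1l1 (0.184), the sterol uptake protein of the small intestinal brush border. The authors' FPKM values carry no correction for library composition, so they are used here for levels and not for the comparison of genotypes.

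**Figure D1:**
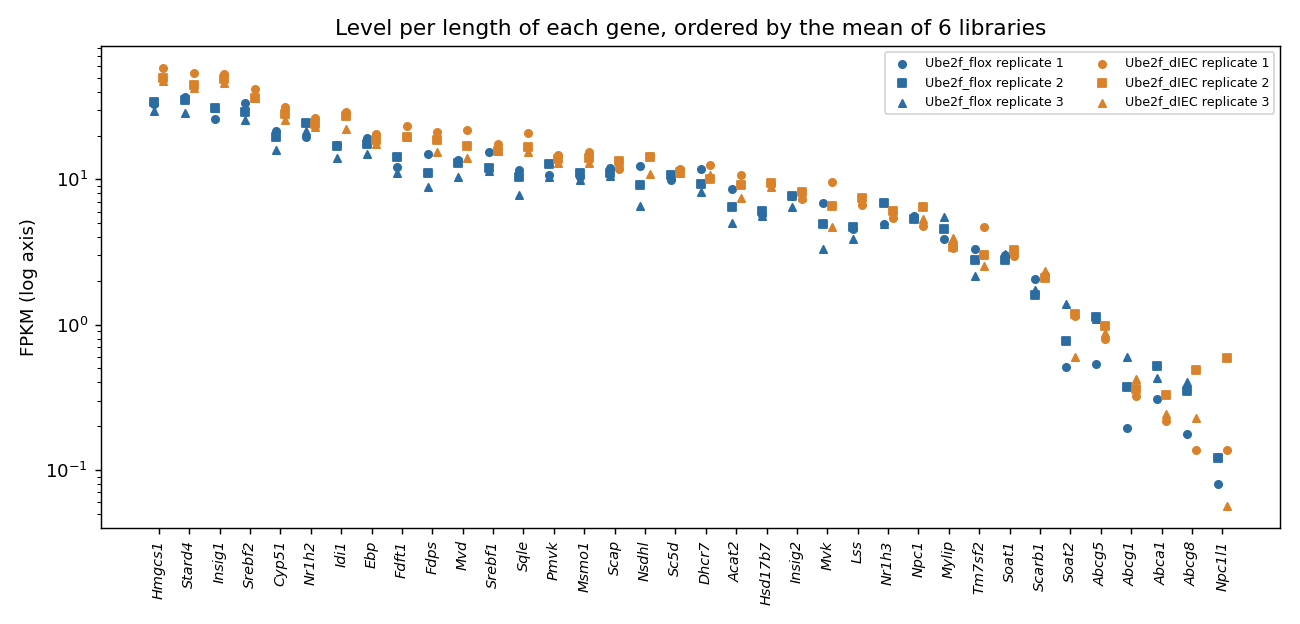
Level per length (FPKM, log axis) of the 36 cholesterol genes, ordered by the mean of the 6 libraries, with 1 point per library (blue Ube2f_flox, orange Ube2f_dIEC). Hmgcs1 leads at a mean of 42.2 FPKM, and the exporters and Npc1l1 lie under 1 FPKM.

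Log2 fold changes, Ube2f_dIEC over Ube2f_flox, were positive in 19 of the 21 SREBP2-driven genes and negative in 5 of the 6 LXR targets, but no single member passed the test over all genes. Of the 36 members 0 were called higher and 0 lower by edgeR's quasi-likelihood test with Benjamini-Hochberg adjustment over 17900 genes, where 0.0223% of all genes were called higher and 0.0223% lower. At an unadjusted p under 0.05, 13 of the 36 were higher, all of them SREBP2-driven, and 2 were lower, both LXR targets, against 4.15% and 4.03% of all genes. DESeq2, run as an alternative, called 8 members higher (Hmgcs1, Idi1, Fdft1, Sqle, Lss, Cyp51, Hsd17b7 and Insig1) and 0 lower, against 0.665% and 0.76% of all genes. limma-voom called 0 members (0.0112% of all genes higher, 0.0168% lower), with 12 members higher and 2 lower at an unadjusted p under 0.05, where 1448 of 17900 genes lay in either direction. In 11 members each Ube2f_dIEC library lay above each Ube2f_flox library, and in 2 each lay below, while 7.26% and 6.9% of all genes did so. Among genes at a mean of at least 10 CPM, 8.03% lay above without overlap and 4.92% were higher at an unadjusted p under 0.05.

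The 21 SREBP2-driven genes had a median log2 fold change of 0.34 and 19 positive values, the 6 LXR targets a median of -0.28 and 1 positive value, and 50% of all genes tested were positive. Over the SREBP2-driven genes the mean level, as log2(CPM + 0.5) centred on the 6 libraries, was -0.09, -0.13 and -0.29 in Ube2f_flox replicates 1 to 3 and 0.34, 0.14 and 0.03 in Ube2f_dIEC replicates 1 to 3, with no overlap. For the LXR targets it was -0.29, 0.23 and 0.44 against -0.31, 0.02 and -0.10, so that Ube2f_flox replicate 1 lay among the Ube2f_dIEC libraries. The difference between these levels, SREBP2-driven minus LXR targets, was 0.20, -0.37 and -0.73 in Ube2f_flox and 0.65, 0.12 and 0.13 in Ube2f_dIEC, and Ube2f_flox replicate 1 again overlapped the Ube2f_dIEC libraries. Without Ube2f_flox replicate 1 the LXR median was -0.60, and without Ube2f_flox replicate 3 it was -0.03. No test was made of these summary levels. Without Ube2f_flox replicate 1, 15 members were higher at an unadjusted p under 0.05 and 3 lower, when 8.14% and 8.21% of all genes were. Of the 15, 14 were SREBP2-driven and 1 was the LXR target Srebf1 (0.27, SE 0.07), while the 3 lower were LXR targets. DESeq2 then called 13 members higher, Srebf1 included, among 1341 of 18678 genes that it called in either direction. Hsd17b7 then passed over all genes (edgeR adjusted p = 0.0469), as 0.209% of genes did in that direction and 0.273% in the other. Scaling by library totals shifted the median of all genes by 0.15, and relative to that shift the SREBP2-driven median was 0.33 and the LXR median -0.26.

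**Figure D2:**
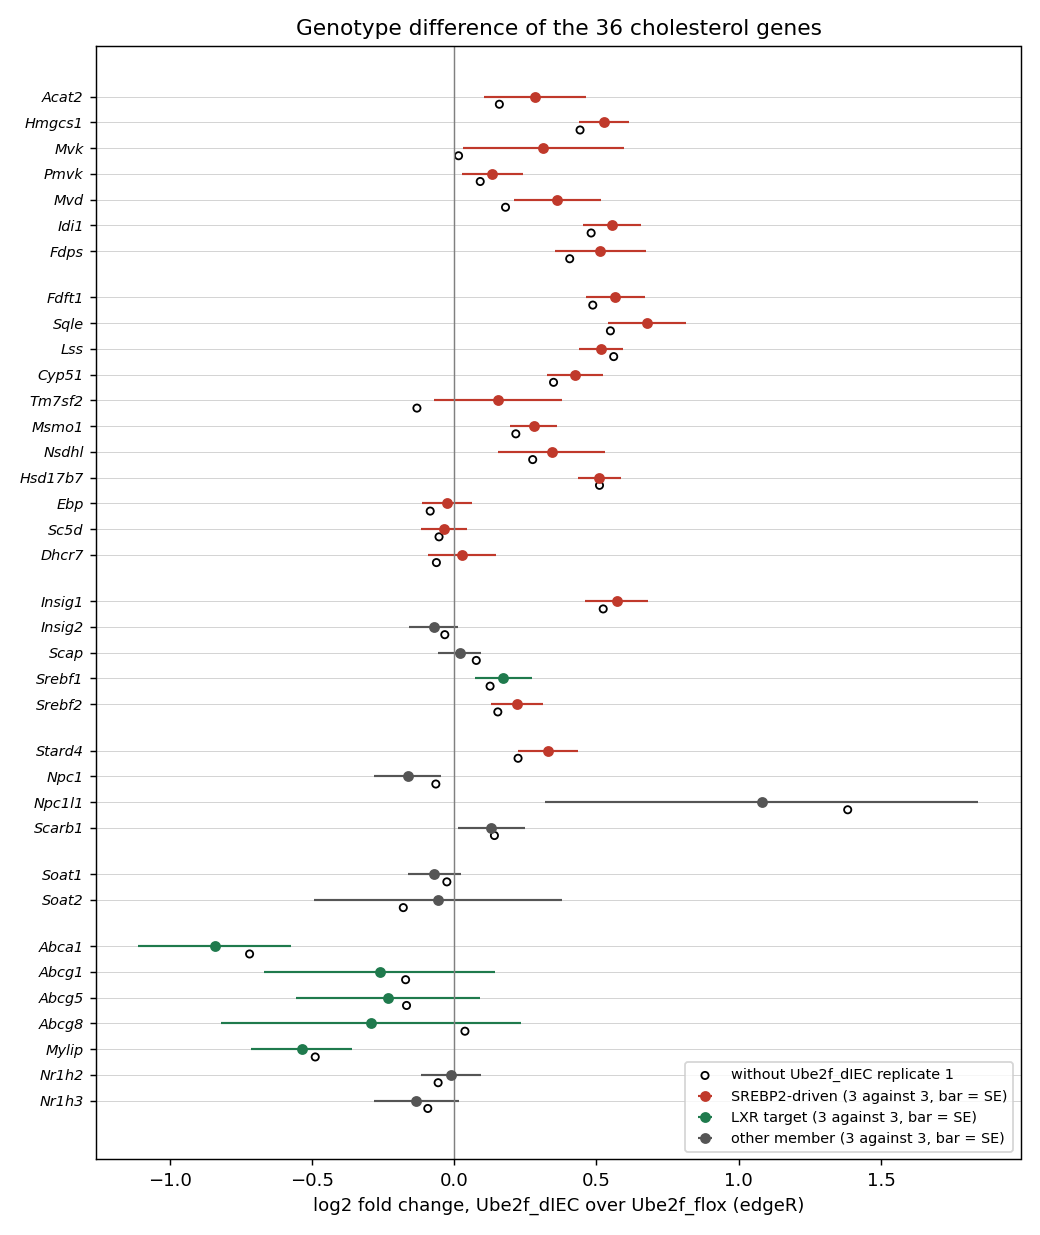
Log2 fold change of each cholesterol gene, Ube2f_dIEC over Ube2f_flox, from edgeR with 3 libraries per genotype (filled points, bars are the SE), and the same without Ube2f_dIEC replicate 1 (open circles). The SREBP2-driven genes run from -0.04 to 0.68 and the LXR targets from -0.84 to 0.17.

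Ube2f_dIEC replicate 1 had the highest level of the 6 libraries in 16 of the 21 SREBP2-driven genes, and Ube2f_flox replicate 3 the lowest in 13. Without Ube2f_dIEC replicate 1 the median of the SREBP2-driven genes was 0.22, 17 of the 21 log2 fold changes were positive (48.6% of all genes), and 10 were higher at an unadjusted p under 0.05 (2.76% of all genes). A single member was lower at that level, Abca1 (3.33% of all genes). The 6 LXR targets then had a median of -0.17, with 2 positive values, and Mylip (-0.49, SE 0.21) no longer had such a p. edgeR then called 0 members and 0 genes over all, with 1129 genes at an unadjusted p under 0.05, and DESeq2 called 7 members higher, among 179 of 18547 genes that it called in either direction. Of the 13 genes higher at an unadjusted p under 0.05 with all libraries, Mvd (0.18, SE 0.12), Srebf2 (0.15, SE 0.09) and Fdps (0.41, SE 0.17) no longer had such a p, while Lss (0.56, SE 0.08) and Hsd17b7 (0.51, SE 0.09) were as far from 0 as with it.

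**Figure D3:**
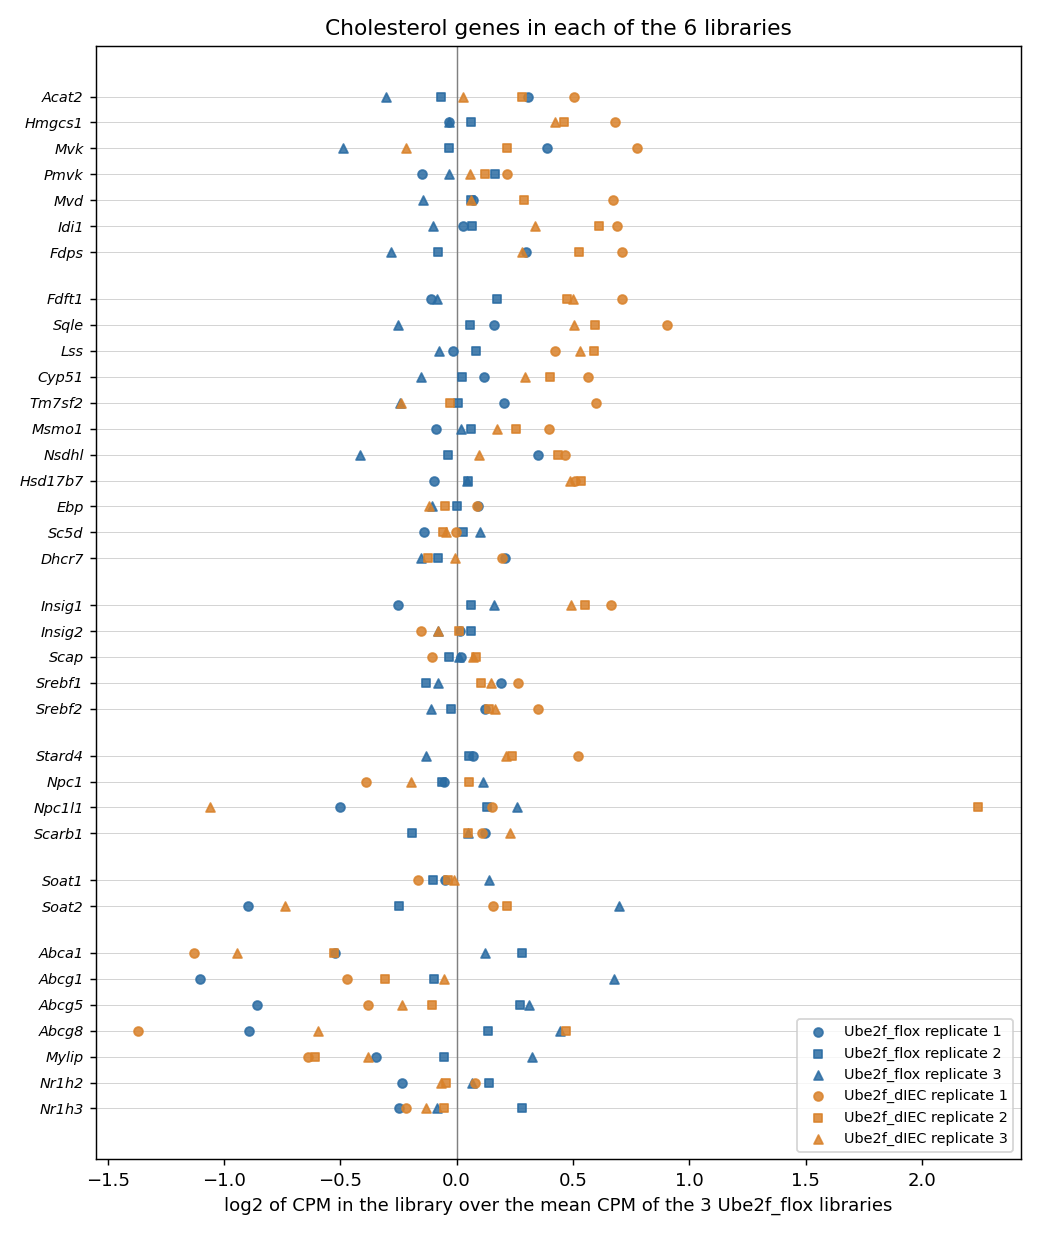
Level of each cholesterol gene in each library as the log2 of its CPM over the mean CPM of the 3 Ube2f_flox libraries (blue Ube2f_flox, orange Ube2f_dIEC, symbol by replicate number). In 11 genes all orange points lie to the right of all blue points, and in Abca1 and Mylip all lie to the left.

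In the mevalonate arm all 7 log2 fold changes were positive (median 0.36), and 4 had an unadjusted p under 0.05, against 4.15% of all genes. Without Ube2f_dIEC replicate 1 all 7 were still positive, the median was 0.18, and 2 had such a p, against 2.76% of all genes. Hmgcs1, which joins acetyl-CoA and acetoacetyl-CoA into HMG-CoA, was at 169, 180.4 and 169 CPM in Ube2f_flox and 277, 238 and 232 CPM in Ube2f_dIEC, a 1.44-fold difference (log2 0.53, SE 0.09; edgeR adjusted p = 0.136, and 2.56e-05 by DESeq2). Idi1, the isomerase that makes dimethylallyl diphosphate, was at 66.6, 68.2 and 60.9 CPM against 105, 99.8 and 82.4 CPM (log2 0.55, SE 0.10; edgeR adjusted p = 0.182). In both genes the genotypes did not overlap. Fdps, which makes farnesyl diphosphate, was at 69.6, 53.6 and 46.5 CPM against 92.5, 81.3 and 68.6 CPM (log2 0.51, SE 0.16). Mvd, the decarboxylase of mevalonate diphosphate, was at 27.9, 27.7 and 24.1 CPM against 42.2, 32.5 and 27.7 CPM (log2 0.36, SE 0.15). In Fdps and Mvd the lowest Ube2f_dIEC library lay just under the highest Ube2f_flox library. Acat2, the cytosolic acetoacetyl-CoA thiolase (log2 0.28, SE 0.18), mevalonate kinase Mvk (0.31, SE 0.28) and phosphomevalonate kinase Pmvk (0.13, SE 0.11) overlapped between genotypes, and Mvk was at 0.02 without Ube2f_dIEC replicate 1.

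The enzymes that make and cyclise squalene were all higher in each Ube2f_dIEC library than in each Ube2f_flox library. Sqle, which adds the epoxide to squalene and is a control point of the pathway, was at 71.5, 66.4 and 53.7 CPM in Ube2f_flox and 119.6, 96.5 and 90.5 CPM in Ube2f_dIEC, 1.60-fold (log2 0.68, SE 0.14; edgeR adjusted p = 0.240). Fdft1, squalene synthase, was at 55.7, 67.7 and 56.7 CPM against 98.3, 83.5 and 84.8 CPM, 1.48-fold (log2 0.57, SE 0.10; edgeR adjusted p = 0.182). Lss, which closes the rings to give lanosterol, was at 54.5, 58.3 and 52.3 CPM against 73.9, 82.9 and 79.5 CPM (log2 0.52, SE 0.08; edgeR adjusted p = 0.0958). Each of these 3 genes was called by DESeq2 (adjusted p = 0.000606, 0.000472 and 2.82e-05). Sqle had the largest log2 fold change of the 21 SREBP2-driven genes, and Lss and Hsd17b7 had the lowest edgeR adjusted p of the 36 members, while by DESeq2 it was Hmgcs1.

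After lanosterol the enzymes varied in their log2 fold changes. Cyp51, the sterol demethylase, was at 105, 98.7 and 87.4 CPM against 144, 128 and 119 CPM (log2 0.42, SE 0.10; edgeR adjusted p = 0.311, and 0.0137 by DESeq2). Hsd17b7, the 3-keto sterol reductase, was at 32.1, 35.5 and 35.4 CPM against 48.9, 49.7 and 48.1 CPM (log2 0.51, SE 0.08; edgeR adjusted p = 0.0958), with little spread in either genotype. Msmo1, the sterol methyl oxidase, was at 70.3, 78.0 and 75.8 CPM against 98.4, 89.3 and 84.3 CPM (log2 0.28, SE 0.08; edgeR adjusted p = 0.445). None of these 3 overlapped between genotypes. Nsdhl, the sterol decarboxylase (0.34, SE 0.19), and Tm7sf2, a sterol reductase (0.15, SE 0.22, and -0.13 without Ube2f_dIEC replicate 1), overlapped.

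The enzymes of the final steps lay near 0. Ebp, the sterol isomerase, was at 49.3, 46.3 and 43.0 CPM against 49.1, 44.6 and 42.6 CPM (log2 -0.02, SE 0.09; edgeR adjusted p = 0.965). Sc5d, the lathosterol desaturase, was at 53.7, 60.4 and 63.4 CPM against 59.0, 56.8 and 57.3 CPM (log2 -0.04, SE 0.08; edgeR adjusted p = 0.934). Dhcr7, which reduces 7-dehydrocholesterol to cholesterol, was at 76.6, 62.7 and 59.5 CPM against 75.9, 60.9 and 66.1 CPM (log2 0.03, SE 0.12; edgeR adjusted p = 0.970). In all 3 the genotypes overlapped, and their signs turned with the scaling or the library left out. The ratio of Sqle to Dhcr7 counts within a library, which no scaling can change, was 0.934, 1.06 and 0.902 in Ube2f_flox and 1.58, 1.58 and 1.37 in Ube2f_dIEC. This pair, like the other ratios given here, was picked after the values were seen, so its lack of overlap restates the values above. Ebp and Nsdhl are X-linked, and in Ube2f_dIEC replicate 1, the library with Xist, both lay within 1 CPM of another library.

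Of the SREBP control genes, Insig1 lay higher in each Ube2f_dIEC library and its relative Insig2 did not. Insig1, which retains SCAP and is itself an SREBP target, was at 89.5, 111 and 119 CPM in Ube2f_flox and 169, 156 and 150.1 CPM in Ube2f_dIEC, 1.49-fold (log2 0.57, SE 0.11; edgeR adjusted p = 0.207, and 0.000930 by DESeq2). Insig2, which also retains SCAP, was at 29.5, 30.5 and 27.7 CPM against 26.3, 29.5 and 27.7 CPM (log2 -0.07, SE 0.09; edgeR adjusted p = 0.866). The ratio of Insig1 to Insig2 counts was 3.03, 3.64 and 4.30 in Ube2f_flox and 6.42, 5.30 and 5.42 in Ube2f_dIEC. Each Ube2f_dIEC ratio thus lay above each Ube2f_flox ratio.

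Srebf2, the gene of SREBP2, was at 267, 241 and 227 CPM against 312, 270.1 and 275 CPM (log2 0.22, SE 0.09; edgeR adjusted p = 0.586), with no overlap between genotypes. Srebf1, the gene of the fatty acid factor SREBP1 and an LXR target, was at 96.7, 77.3 and 80.3 CPM against 102, 91.2 and 93.9 CPM (log2 0.17, SE 0.10; edgeR adjusted p = 0.700) and was the 1 LXR target with a positive value. The ratio of Srebf2 to Srebf1 counts was 2.90 ± 0.190 in Ube2f_flox and 2.99 ± 0.0736 in Ube2f_dIEC (SD, n = 3). Scap, the escort of the SREBPs, was at 98.9, 95.3 and 98.2 CPM against 90.5, 103 and 102 CPM (log2 0.02, SE 0.08). Cleavage of SREBP2 is not measured by RNA.

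Genes of uptake, transport and storage showed no common direction. Stard4, a cytosolic sterol carrier that SREBP2 induces, was at 229, 226 and 199 CPM against 313, 257 and 253 CPM (log2 0.33, SE 0.10; edgeR adjusted p = 0.470), with no overlap. Npc1, which moves sterol out of lysosomes, was at 70.4, 70.1 and 79.1 CPM against 56.0, 76.0 and 64.0 CPM (log2 -0.16, SE 0.12). Scarb1, the receptor for high-density lipoprotein, differed by 0.13 (SE 0.12). The sterol esterifying enzymes Soat1 (-0.07, SE 0.09) and Soat2 (-0.06, SE 0.44) overlapped, and Soat2 was low, at 1.27 to 3.82 CPM.

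Npc1l1 was at 0.405, 0.628 and 0.687 CPM in Ube2f_flox and 0.637, 2.72 and 0.276 CPM in Ube2f_dIEC. Its log2 fold change of 1.08 (SE 0.76; edgeR adjusted p = 0.760) rested on Ube2f_dIEC replicate 2, and without that library it was -0.33. The floor of detection, taken as 3 counts, lay between 0.0376 and 0.0529 CPM.

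Among the LXR targets, Abca1 and Mylip lay lower in each Ube2f_dIEC library than in each Ube2f_flox library. Abca1, which loads cellular cholesterol onto apolipoprotein A-I, was at 3.56, 6.20 and 5.55 CPM against 2.33, 3.54 and 2.66 CPM, 0.56-fold (log2 -0.84, SE 0.27; edgeR adjusted p = 0.472, and 0.136 by DESeq2). Ube2f_flox replicate 1 and Ube2f_dIEC replicate 2 were almost equal, at 3.56 and 3.54 CPM. Mylip, the ubiquitin ligase also called IDOL that marks the LDL receptor for degradation, was at 13.9, 17.0 and 22.0 CPM against 11.3, 11.6 and 13.5 CPM (log2 -0.54, SE 0.18; edgeR adjusted p = 0.481). Here too Ube2f_flox replicate 1 lay close to the highest Ube2f_dIEC library.

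The ABCG exporters overlapped between genotypes. Abcg1 was at 1.58, 3.17 and 5.43 CPM against 2.45, 2.74 and 3.27 CPM (log2 -0.26, SE 0.40), and without Ube2f_flox replicate 3 its value was 0.25. Abcg5 and Abcg8, whose products pair to return sterol to the lumen, had log2 fold changes of -0.23 (SE 0.32) and -0.29 (SE 0.53). Abcg5 was at 1.63, 3.58 and 3.68 CPM against 2.28, 2.76 and 2.52 CPM. Abcg8 was at 0.745, 1.52 and 1.89 CPM against 0.536, 1.92 and 0.914 CPM, and 0.04 on the log2 scale without Ube2f_dIEC replicate 1. All 3 were lowest or next to lowest in Ube2f_flox replicate 1, which sets that library apart from the other Ube2f_flox libraries.

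The receptors themselves overlapped between genotypes. Nr1h2 was at 73.1, 94.9 and 90.1 CPM against 91.0, 83.4 and 82.1 CPM (log2 -0.01, SE 0.11; edgeR adjusted p = 0.990). Nr1h3 was at 13.9, 20.04 and 15.6 CPM against 14.2, 15.9 and 15.1 CPM (log2 -0.13, SE 0.15; edgeR adjusted p = 0.852). The ratio of Hmgcs1 to Abca1 counts, an SREBP2-driven gene over an LXR target, was 47.5, 29.1 and 30.5 in Ube2f_flox and 119, 67.2 and 87.4 in Ube2f_dIEC. Its genotypes did not overlap.

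Neighbouring pathways had list medians between -0.21 and 0.10, and 0 genes of any of these lists passed over all genes by edgeR. The counts of these lists at an unadjusted p under 0.05 stand against 4.15% of all genes higher and 4.03% lower. Of 9 genes of SREBP processing and sterol sensing, 0 were higher and 1 lower at that level (median 0.08). The 1 was Erlin1, which takes part in the degradation of sterol-regulated proteins (-0.18, SE 0.07). In the isoprenoid branches, which use mevalonate products for dolichol, ubiquinone and protein prenylation, 1 of 11 was higher, the farnesyltransferase subunit Fntb (0.22, SE 0.09), and Nus1 of dolichol synthesis was at -0.16 (SE 0.09; list median 0.08). None of the 4 electron donors and accessory genes passed at that level (median 0.06), with Por at -0.15 (SE 0.11) and Erg28 at 0.20 (SE 0.14). Of 11 genes of endosomal and interorganelle sterol transport 1 was lower, Gramd1b (-0.54, SE 0.22), with its relative Gramd1a at -0.63 (SE 0.32; list median -0.07).

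Among 12 SREBP1-type fatty acid genes 3 were higher at an unadjusted p under 0.05 (median 0.10), against 4.15% of all genes. They included malic enzyme Me1 (0.81, SE 0.19, edgeR adjusted p = 0.311), which DESeq2 called, and the desaturase Fads2 (0.41, SE 0.15). The level of this list was 0.30, -0.26 and -0.26 in Ube2f_flox replicates 1 to 3. In Ube2f_dIEC replicates 1 to 3 it was 0.32, -0.05 and -0.05. Ube2f_flox replicate 1 thus lay among the Ube2f_dIEC libraries, while Ube2f_flox replicates 2 and 3 lay below them. Of 8 further LXR targets, partners and oxysterol enzymes, 6 were tested, and all 6 values were negative (median -0.21). Those of lowest p were the LXR partner Rxra, at 173, 160.3 and 157 CPM against 128, 147 and 141 CPM (log2 -0.24, SE 0.08), and the sterol 27-hydroxylase Cyp27a1 (-0.94, SE 0.33), which was at 5.99 CPM in Ube2f_flox replicate 1, among the Ube2f_dIEC values of 5.51 to 7.01 CPM.

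Some cell type markers also lay at different levels in the genotypes. edgeR called 0 of the markers over all genes. DESeq2 called 5 of 8 proliferating crypt and 2 of 6 goblet markers higher, against 0.665% of all genes. It called 2 of 7 absorptive and 1 of 4 stem cell markers lower, against 0.76% of all genes. All 8 genes of the proliferating crypt had positive log2 fold changes (median 0.60), 6 with an unadjusted edgeR p under 0.05, against 4.15% of all genes. Their summed level was 353 to 559 CPM in Ube2f_flox and 551 to 632 CPM in Ube2f_dIEC. All 7 absorptive colonocyte markers were negative (median -0.25), at 15383 to 18966 CPM against 13566 to 16989 CPM. Of 6 goblet markers 4 were positive (median 0.38), and the 6 summed to 9074 to 10903 CPM against 15750.1 to 16189 CPM. The other 2 went the other way. Tff3 (-0.33, SE 0.09) lay lower in each Ube2f_dIEC library, and Zg16 (-0.36, SE 0.19) overlapped. All 4 stem cell markers were negative (median -0.37). The proliferating level was 0.10, -0.42 and -0.52 in Ube2f_flox replicates 1 to 3 and 0.26, 0.39 and 0.20 in Ube2f_dIEC replicates 1 to 3. As for the SREBP2-driven genes, Ube2f_flox replicate 3 was lowest and the genotypes did not overlap. The highest library differed, Ube2f_dIEC replicate 2 for the proliferating level (0.39) and replicate 1 for the SREBP2-driven level (0.34). Ube2f_flox replicates 1 and 2 lay at 0.10 and -0.42 in the proliferating level but at -0.09 and -0.13 in the SREBP2-driven level. The part of the marker shifts in the SREBP2-driven values was not tested. In bulk libraries fewer cells of a type and less RNA per cell cannot be told apart.

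LXR targets are also expressed by macrophages. Of 8 tested macrophage and dendritic markers 6 were negative (median -0.70), and the 9 genes of the list, Adgre1 included, summed to 16.7 to 25.2 CPM in Ube2f_flox and 13.8 to 16.3 CPM in Ube2f_dIEC. Adgre1, too low to test, had 0 counts in the 3 Ube2f_dIEC libraries and lay between 0.105 and 1.18 CPM in Ube2f_flox. All 7 T and innate lymphoid markers were negative (median -0.67), at 17.0 to 49.6 CPM against 20.8 to 24.03 CPM. Their level was lowest in Ube2f_flox replicate 1 and highest in Ube2f_flox replicate 3, the same libraries in which the LXR target level was lowest and highest among Ube2f_flox. Among Ube2f_dIEC this match was absent. Replicate 2 had the lowest lymphoid level there (-0.30) but the highest LXR target level (0.02) and the highest macrophage and dendritic level (-0.05). The part of these cells in the LXR target values was not tested. Markers of B and plasma cells, fibroblasts and endothelium summed to at most 4.17 CPM per list in any library.

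**Figure D4:**
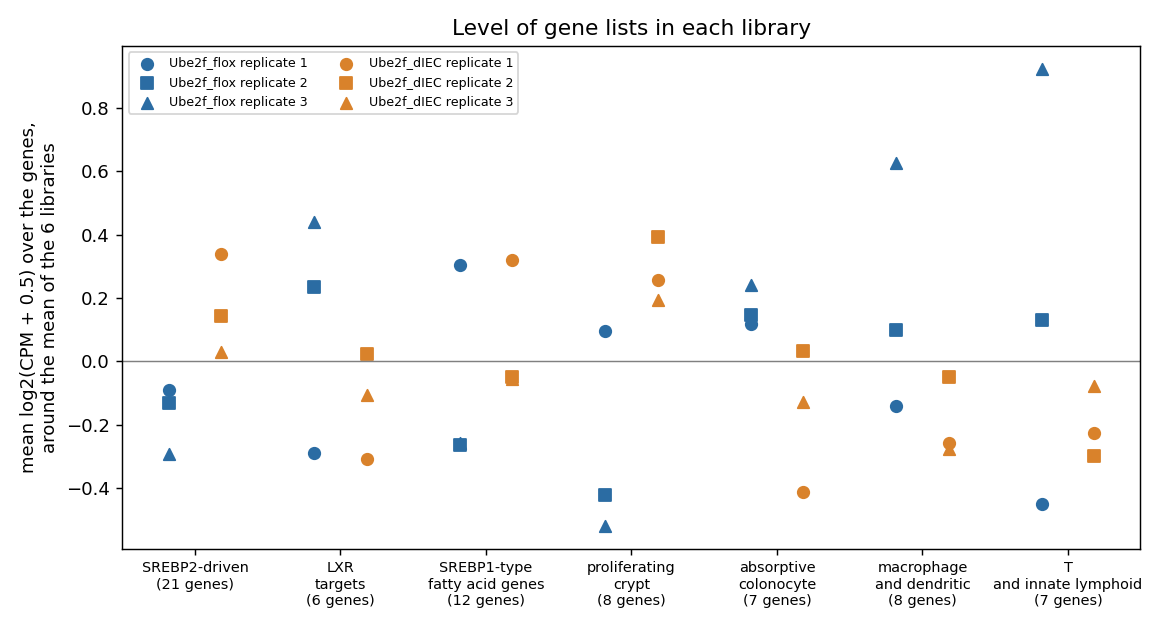
Mean level of 7 gene lists in each library, as log2(CPM + 0.5) averaged over the genes and set around the mean of the 6 libraries (blue Ube2f_flox, orange Ube2f_dIEC, symbol by replicate number). SREBP2-driven genes separate the genotypes, from -0.29 to -0.09 against 0.03 to 0.34, whereas the LXR targets of Ube2f_flox replicate 1 (-0.29) lie among the Ube2f_dIEC libraries.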

How the data were processed

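Messenger RNA of 6 libraries, 3 per genotype, was analysed. Raw whole-number counts and FPKM values (normalised by the authors for gene length and library size) were read from the deposited table. The submitters' processing notes list mm10 and the tools StringTie 2.1.6, HISAT2 2.2.1, cutadapt 1.9, edgeR and DESeq2. Neither the counting step nor its strand setting is stated in these sources, so overlapping and antisense genes cannot be told apart. Gene coordinates in the table were not used.

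Genes were kept by filterByExpr (17900 of 28500), scaled by TMM and tested by genotype with edgeR's quasi-likelihood test (edgeR 4.0.16, R 4.3.3), 2-sided, Benjamini-Hochberg adjusted over all genes, threshold 0.05. SE is the log2 fold change over the square root of F. The biological coefficient of variation was 24.8%. Alternatives were DESeq2 1.42.0, limma-voom (limma 3.58.1), other scaling, no filter, a replicate block and leaving out each library. With 3 against 3, an exact permutation test cannot go below p = 0.1. The floor covers counting error only, because no molecular identifiers separate PCR copies. List levels use log2(CPM + 0.5). The members and lists were chosen with earlier results of these data known, so no list was tested as a set. All members were to be named, and of each neighbouring list the 2 genes of lowest p at a mean of at least 1 CPM. One gene this rule selects is not reported here.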

Additional observations from a re-analysis of the deposited data

How the results depend on the processing

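Over 12 alternatives, 432 values of single members were computed: 393 kept their direction and side of the threshold, 10 newly passed it, 0 dropped below it and 29 turned sign. The turns fell in 13 members, and the other 23 kept their sign under all 12. edgeR called 4 genes higher and 4 lower over all genes. This became 119 and 136 with DESeq2, 13 higher with library totals, and 2 higher with limma-voom, and over the libraries left out in turn 0 to 39 higher and 0 to 51 lower, both upper values without Ube2f_flox replicate 1. Members called higher (0) became 8 with DESeq2, 1 with library totals (Hsd17b7) and 0 to 1 without single libraries, and members lower at an unadjusted p under 0.05 (2) ran from 1 to 3. The SREBP2-driven median of 0.34 was 0.49 with library totals and 0.22 to 0.49 without single libraries, lowest without Ube2f_dIEC replicate 1. The LXR median of -0.28 ran from -0.60 to -0.028. The Ube2f log2 fold change was -0.95 and passed with DESeq2, and ran from -1.04 to -0.82 without single libraries, passing without Ube2f_flox replicate 1 alone.

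With library totals the log2 fold changes of Ebp (0.13), Sc5d (0.12), Insig2 (0.08), Nr1h2 (0.15), Nr1h3 (0.022), Soat1 (0.088) and Soat2 (0.12) turned positive, all under the shift of all genes (0.154). Soat2 was 0.065 with limma-voom. Without single libraries the value ran from -0.13 to 0.32 for Tm7sf2, -0.084 to 0.021 for Ebp, -0.11 to 0.013 for Sc5d, -0.062 to 0.14 for Dhcr7, -0.015 to 0.078 for Scap, -0.33 to 1.55 for Npc1l1, -0.61 to 0.25 for Abcg1, -0.92 to 0.038 for Abcg8, -0.12 to 0.066 for Nr1h2, -0.25 to 0.031 for Nr1h3, -0.12 to 0.0030 for Soat1 and -0.36 to 0.47 for Soat2. The cause of these turns was not tested.

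Replicate numbers are shared between genotypes, but same-numbered libraries deviated together with correlations of only 0.081, -0.015 and 0.083 (numbers 1 to 3), and not each library correlated best with its own number, so the numbers were not treated as pairs. With the number as a replicate block 10 genes were called over all (8 without), 0 members were called, 17 members were higher at an unadjusted p under 0.05 (13 without the block), while the genes at that level in either direction went from 1464 to 1658 of 17900, the SREBP2-driven median was 0.34, the LXR median was -0.27, and Soat2 turned to 0.045. Npc1l1, Abcg8, Abcg1, Abcg5, Soat2 and Abca1 lay at a few CPM or under and had fewer counts than the enzymes. Counts were lowest in Npc1l1 (22 to 208 per library) and Abcg8 (32 to 147), while Abca1 had 139 to 424. The part of depth in their SE was not tested.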
